A study of Mus musculus with 10 samples.

Results

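Long non-coding RNA genes of 2 kinds were followed through the 3 peak lists of the series: hosts of small nucleolar RNAs (snoRNAs) and genes named for their tie to pluripotency. They were picked by name from the RefSeq annotation of GRCm38.p6 (mm10 coordinates) as long non-coding RNA (lncRNA) genes called Snhg or Platr plus a number, together with Gas5. This gave 35 of 12727 lncRNA genes (34610 genes with the protein-coding ones): 17 Snhg genes and Gas5, counted together as 18 host genes, and 17 Platr genes. The names played no part in how the peaks were called. Snhg7os, an opposite-strand neighbour of Snhg7 with a longer name, and Platr25, which RefSeq files under another RNA class, fell just outside. Snhg7os held no peak, and Platr25 held 2 wild-type and 1 knockout m6A peaks and no RIP peak.

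The peaks come from mouse embryonic stem cells, which the growth protocol describes as a male line from 129 mice kept in serum and LIF without feeders. A RIP list maps RNA that came down with Halo-tagged YTHDC1 from Halo-Ythdc1 knock-in cells (total RNA, 1 pull-down and 1 input, no RNA fragmentation). An m6A list exists for Mettl3 wild-type cells and another for Mettl3 knockout cells (polyA RNA, 2 precipitates and 2 inputs per genotype). Of the 2 knockout precipitates, 1 carries the wild-type list in its label, and the knockout samples read WT in the cell type field, so the genotype of each list rests on its name and on the sample titles. The labels do not say how the knockout was made or whether it is 1 clone. The lists hold 30992 RIP, 12368 wild-type and 6764 knockout peaks, given by position alone, without strand or height, and each stands for its condition without a value per replicate. No difference could be set against replicate spread, the depth is unknown, and the intervals and tests below treat genes as the units counted, although genes are not replicates. The lists give no RNA level, so low expression and lack of binding or methylation cannot be told apart in a gene without a peak, and the cell type can be seen only through peaks. Of 7 embryonic stem cell marker genes, Pou5f1, Sox2, Nanog, Klf4, Zfp42 and Esrrb held a peak in at least 1 list and Dppa5a in none. Of 6 markers of other cell types only Thy1 held a peak (1, in the knockout list). Of all protein-coding genes, 42.2% held a RIP, 30.3% a wild-type and 18.2% a knockout peak, so a peak in a marker gene does not by itself identify the cell type.

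METTL3 is the catalytic subunit of the complex that places m6A on messenger and other polymerase II transcripts, and YTHDC1 is the reader of m6A inside the nucleus. An Snhg gene makes a spliced RNA with little coding capacity whose introns are trimmed into snoRNAs, the guides for chemical modification of ribosomal and spliceosomal RNA (box C/D snoRNAs, named Snord, for ribose methylation, and box H/ACA snoRNAs, named Snora, for pseudouridylation). Many such host RNAs start with a run of pyrimidines, the mark of the 5' terminal oligopyrimidine class that also holds ribosomal protein messenger RNAs. Platr stands for pluripotency-associated transcript, a name given to lncRNAs whose levels follow the pluripotent state of embryonic stem cells.

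Nearly every host gene held a YTHDC1 RIP peak, and fewer Platr genes did. At least 1 RIP peak had its midpoint in the span of 17 of 18 host genes (94.4%, exact 95% binomial interval 72.7 to 99.9%) and of 11 of 17 Platr genes (64.7%, 38.3 to 85.8%). Among all lncRNA genes the share was 10.3%. The odds ratio of host over Platr genes was 9.27 (95% interval 0.979 to 87.9; two-sided p = 0.0408 by Fisher's exact test, 0.122 after Benjamini-Hochberg adjustment over the 3 lists), so the difference did not pass the threshold of 0.05 after adjustment. It passed when only peaks wider than the list's median were counted (17 against 9 genes, exact adjusted p = 0.0217). It came down to 11 of 12 host genes against 9 of 13 Platr genes among members of 2 to 50 kb (exact adjusted p = 0.483).

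**Figure D1:**
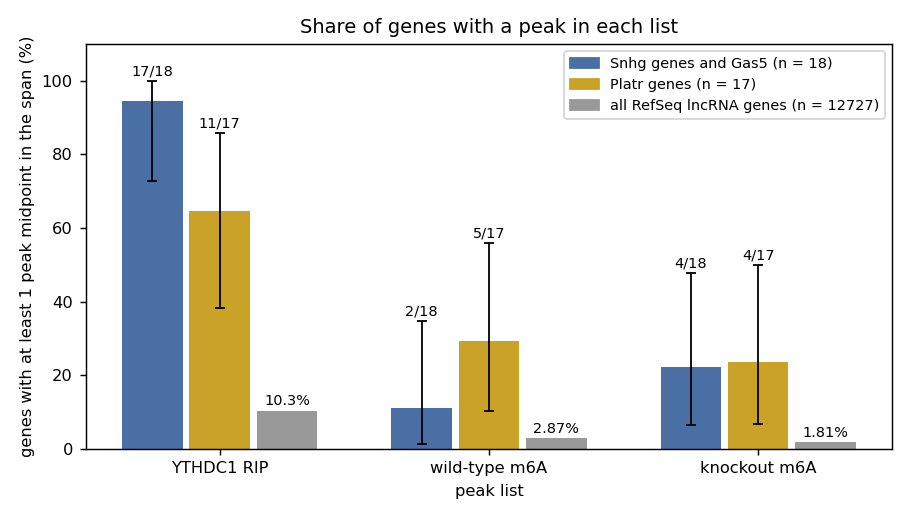
Percent of genes with at least 1 peak midpoint in the span (y axis) in each of the 3 peak lists (x axis), for 18 host genes, 17 Platr genes and 12727 lncRNA genes; error bars on the host and Platr bars are exact 95% binomial intervals with the counts above them. Host and Platr bars stand above that of all lncRNA genes in each list, and their intervals overlap each other. The host interval for wild-type m6A (1.38 to 34.7%) includes the 2.87% of all lncRNA genes.

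The host genes are the shorter group. Their spans had a median of 2954 bp against 10924 bp for the Platr genes, and 15 of 18 were under 5 kb against 3 of 17. Of lncRNA genes of 2 to 5 kb, 5.35% held a RIP peak, while 9 of 10 host genes of that length did. Of lncRNA genes under 2 kb, 5.46% held a RIP peak, beside 5 of 5 host genes and 1 of 3 Platr genes. Between 5 and 20 kb the share was 9.17% of lncRNA genes, 2 of 2 host genes and 6 of 9 Platr genes. The number of RIP peaks per gene had a median of 2 in host genes and 1 in Platr genes. The median was 0.841 RIP peaks per kb of span in host genes and 0.0758 in Platr genes, and RIP peaks covered a median of 22.6% and 1.23% of the span. Values per length depend on the span by construction, so that Snhg9 reached 2.30 per kb with 1 peak. The part of span length in these gaps was not tested.

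**Figure D2:**
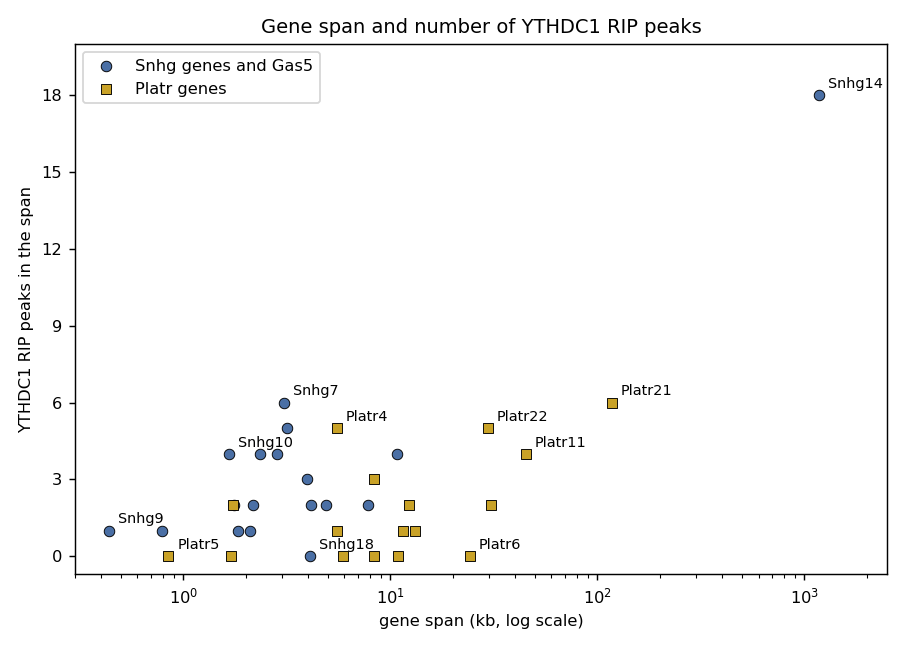
Number of YTHDC1 RIP peaks in the span (y axis) against the gene span in kb on a log axis (x axis), 1 point per gene. Snhg14 stands alone at 1177441 bp with 18 peaks, and Snhg10 (1663 bp), Snhg7 (3069 bp) and Snhg15 (3170 bp) hold 4, 6 and 5, beside 5 in Platr22 (29518 bp) and 6 in Platr21 (117513 bp).

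Among the compact hosts, Snhg7 (chromosome 2, 26637176 to 26640244) held 6 RIP peaks of 67 to 451 bp that covered 46.4% of its span. Snhg15 (chromosome 11, 6525591 to 6528760) held 5 peaks of 89 to 320 bp. Snhg1 (chromosome 19, 8723487 to 8726326), host of Snord22, Snhg12 (chromosome 4, 132308678 to 132311024) and Snhg10 (chromosome 12, 105030617 to 105032279) held 4 each, the widest of 219, 239 and 233 bp. Gas5 (chromosome 1, 161034601 to 161038539), a growth-arrest RNA with 8 nested snoRNA models, held 3 of 200 to 398 bp. Snhg3, Snhg4 (chromosome 18, 35553410 to 35558316), Snhg16, Snhg17 (chromosome 2, 158353700 to 158361522) and Snhg20 held 2 each, the widest of 250, 222, 285, 381 and 340 bp. Snhg5, Snhg6, Snhg8 and Snhg9 held 1 each, of 229, 309, 343 and 231 bp. Snhg11 (chromosome 2, 158375713 to 158386474), the longest host after Snhg14, held 4 of 125 to 739 bp. Snhg18, host of Snord123, was the host gene without a peak in any list. Gene spans overlap in places and the peaks carry no strand: the peak of Snhg9 also lay in the span of Rps2, a ribosomal protein gene.

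**Figure D3:**
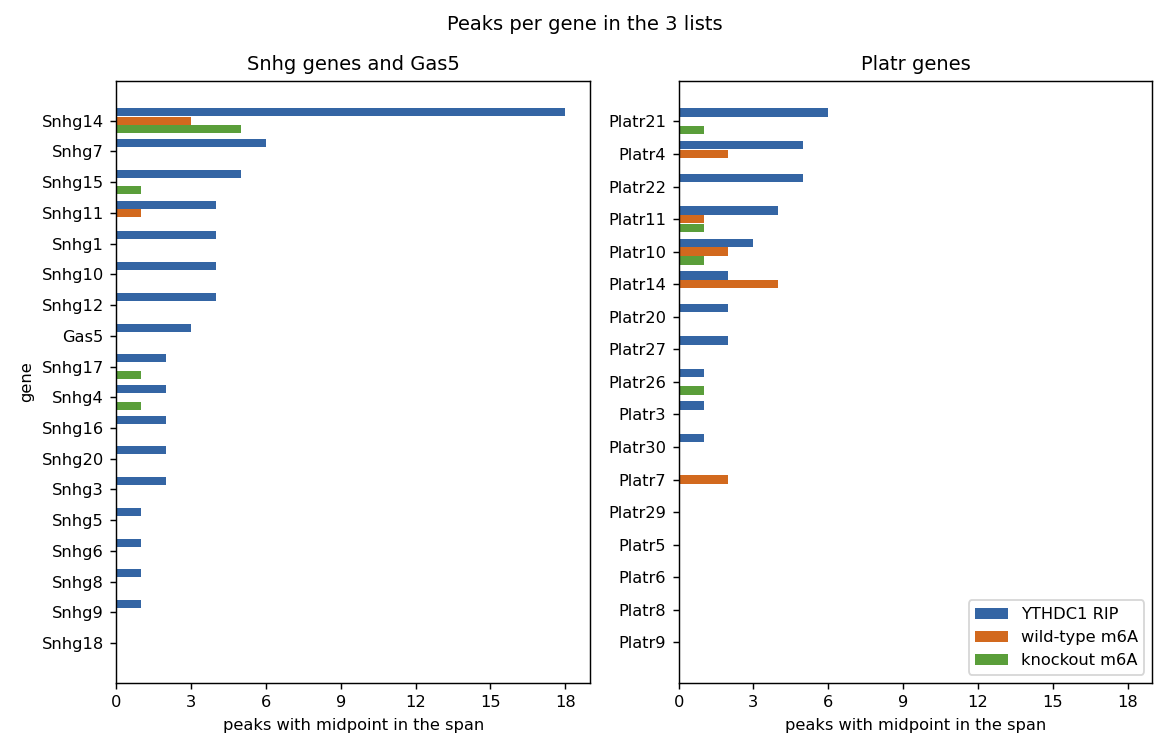
Number of peaks with midpoint in the span (x axis) for each of 18 host genes (left) and 17 Platr genes (right), in the RIP (blue), wild-type m6A (orange) and knockout m6A (green) lists. Snhg18 and 5 Platr genes have no bar, and Platr7 has m6A peaks and no RIP peak.

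RIP peaks overlapped nested snoRNA models in 11 hosts. The RNA of the RIP was not fragmented, so the position of a peak here and below does not show where on the RNA YTHDC1 was bound. A nested snoRNA gene model was found in 16 host genes and in no Platr gene. Over these 16 genes a RIP peak touched 18 of 245 nested snoRNAs (7.35%), and 206 of the 245 belong to Snhg14. Outside Snhg14, a split made after seeing the data, 17 of the 38 RIP peaks of such hosts (44.7%) touched a nested snoRNA, and 17 of the 39 nested snoRNAs (43.6%) were touched by a RIP peak, in 10 of 15 genes. Of all 1340 RefSeq snoRNA models, 4.40% were touched. These models were not limited to genes with a RIP peak, and 1208 of them carry no snoRNA symbol (2.48% touched). A touch means an overlap of at least 1 bp, and it was 8 bp for Snord99. How often peaks placed at random in these hosts would touch a snoRNA was not tested. SnoRNAs made up 7.28% of these host spans, and 16.8% of the bases under their RIP peaks were snoRNA bases. The RIP was made from total RNA, in which free snoRNAs are present along with host RNA, and the lists do not tell them apart.

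The nested snoRNAs were also grouped by symbol, after the values were seen and with no test of a difference. A RIP peak touched 8 of 10 nested Snora models, namely Snora17 and Snora43 in Snhg7, Snora24 in Snhg8, Snora61 in Snhg12, Snora73a and Snora73b in Snhg3, Snora74a in Snhg4 and Snora78 in Snhg9, and missed Snora16a and Snora44 in Snhg12. Of 8 nested Snord models 3 were touched, Snord22 in Snhg1, Snord99 in Snhg12 and Snord1c in Snhg16, whereas Snord1a, Snord1b, Snord47, Snord87 and Snord123 were not. The nested Snora models are longer, with a median of 138 bp against 76.5 bp, and the part of length in these counts was not tested. Among all RefSeq models with these symbols, 14 of 39 Snora (35.9%) and 15 of 93 Snord (16.1%) were touched. The remaining 21 nested models outside Snhg14 carry no snoRNA symbol, so their class is not known here, and 6 of them were touched.

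Peaks also lay away from the snoRNAs. Snhg10 and Snhg20 have no nested model in the annotation and held 4 and 2 RIP peaks. In Snhg5 the single 229 bp peak lay past both snoRNAs, with its midpoint 128 bp from the 3' end, and in Snhg17 neither of the 2 peaks touched its 2 snoRNAs. The annotation used gives spans without exons, so peaks could not be divided between exons and introns. Over 14 hosts with a known strand, Snhg14 left out, the RIP peaks were spread along the gene: with each span cut into 3 equal parts, 18 of 41 midpoints lay in the part next to the start and 13 in the part next to the 3' end.

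**Figure D4:**
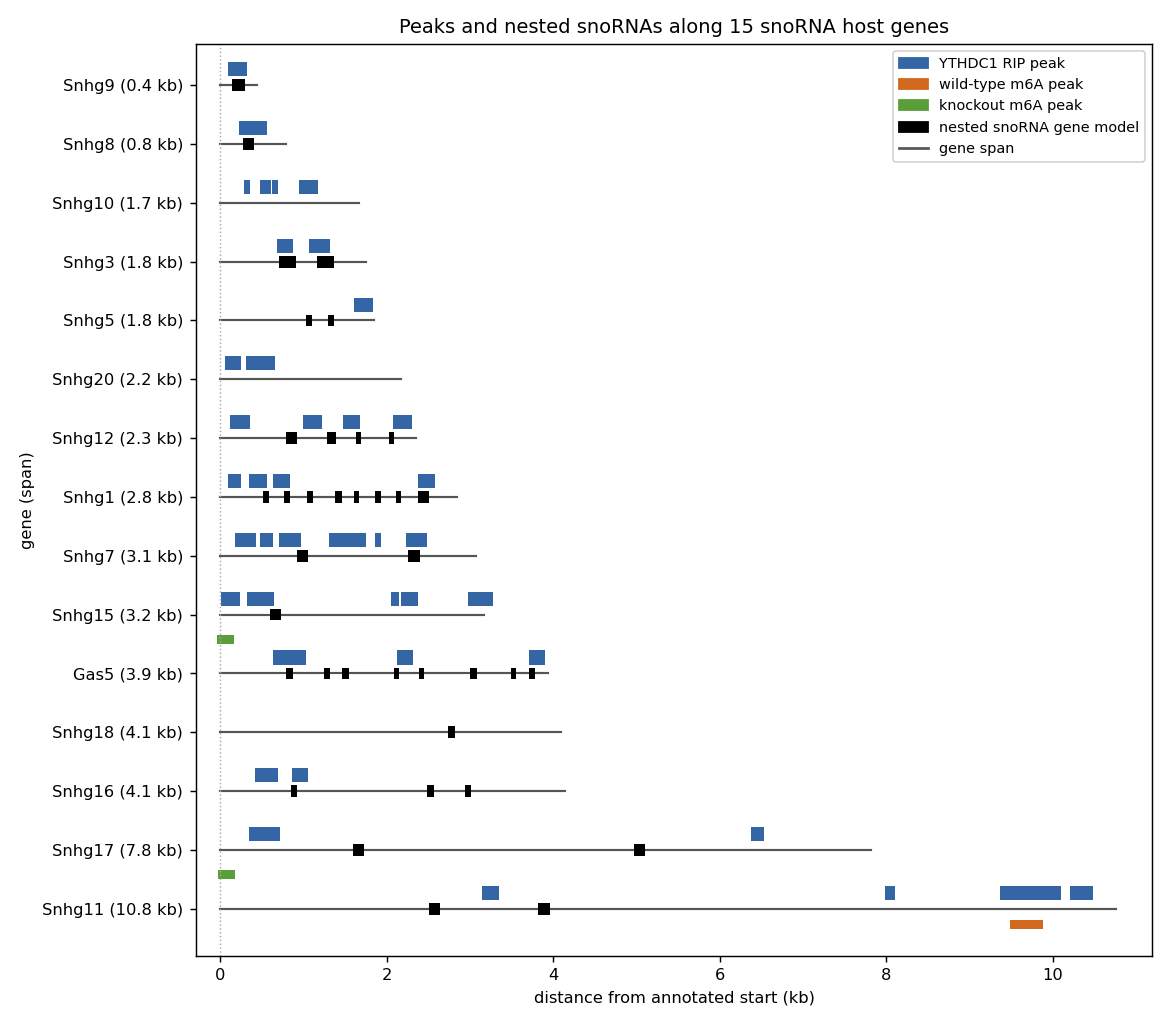
Peaks and nested snoRNA models along 15 host genes with a known strand, by distance from the annotated start in kb (x axis), shortest gene at the top; Snhg14 is left out for its length. RIP peaks (blue) sit over the snoRNAs (black) in Snhg3, Snhg8 and Snhg9 and beside them in Snhg5 and Snhg17, the knockout m6A peaks (green) lie at the starts of Snhg15 and Snhg17, and the wild-type m6A peak (orange) lies near the 3' end of Snhg11.

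Snhg14 stood apart. Its 1.18 Mb span (chromosome 7, 59272737 to 60450177) holds the imprinted Snord115 and Snord116 clusters, known for their loss in Prader-Willi syndrome, and runs across Ube3a, a ubiquitin ligase gene, and Snrpn, a spliceosome protein gene. It held 18 RIP peaks, but with 0.0153 per kb it was the sparsest of the 17 host genes with a peak. Of these, 8 lay in the span of Snrpn, 3 in that of Ube3a and 7 in neither. A RIP peak touched 1 of its 206 nested snoRNA models. Widths of 5180, 5272, 5734 and 6643 bp set 4 of its RIP peaks apart from those of all other members, whose widest was 2166 bp. In the full RIP list 12.4% of peaks were wider than 4 kb.

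Wild-type m6A peaks were few in both groups, and every member that held one was over 5 kb long. They lay in 2 of 18 host genes (11.1%, exact 95% binomial interval 1.38 to 34.7%), Snhg11 and Snhg14, and in 5 of 17 Platr genes (29.4%, 10.3 to 56.0%), against 2.87% of all lncRNA genes. The odds ratio of host over Platr genes was 0.300 (0.0495 to 1.82; exact p = 0.229, adjusted p = 0.343). With peaks wider than the list median it was 0 against 4 genes (exact adjusted p = 0.0682), and with each peak given to 1 gene, protein-coding genes first, 1 against 5 (exact adjusted p = 0.132). None of 15 host genes and none of 3 Platr genes under 5 kb held a wild-type peak. Of lncRNA genes, 0.718% under 2 kb and 1.79% of 2 to 5 kb held one. Host genes are mostly shorter, and the part of length in the difference between the groups was not tested. Of lncRNA genes of 5 to 20 kb 3.14% held one, beside 1 of 2 host genes and 4 of 9 Platr genes, and from 20 kb up 4.37%, beside 1 of 1 host gene and 1 of 5 Platr genes.

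Platr14 (chromosome 2, 104559184 to 104571429) carried the most, 4 wild-type peaks of 150, 300, 400 and 700 bp that covered 12.7% of the span, and no knockout peak. All 4 lay 73.8 to 94.1% of the way along the gene, the widest at 104570351 to 104571050. Platr7 (chromosome 10, 84547417 to 84553338) had wild-type peaks of 550 and 850 bp over 23.6% of its span and no peak in the knockout or RIP list, the only member with m6A and no RIP peak. Platr4 (chromosome 3, 41487681 to 41493199) had wild-type peaks of 100 and 150 bp, no knockout peak and 5 RIP peaks. The 400 bp peak of Snhg11 (158385201 to 158385600), with its midpoint 1073 bp from the 3' end, lay wholly under a RIP peak of 739 bp and had no knockout counterpart. Among Platr genes with a known strand, 6 of 8 wild-type midpoints fell in the part next to the 3' end when each span was cut into 3. The 8 peaks come from 3 genes only, and the 4 peaks of Platr14 are all among the 6.

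Platr10 and Platr11 held peaks in all 3 lists, as did Snhg14. In Platr10 (chromosome 3, 75647441 to 75655731) the 650 bp wild-type peak (75648401 to 75649050) overlapped a 200 bp knockout peak (75648401 to 75648600), and both lay under a RIP peak of 1503 bp. A second wild-type peak of 150 bp near the start lay under the 2166 bp RIP peak. In Platr11 (chromosome 9, 118402017 to 118447177) the m6A peaks differed in place: the 900 bp wild-type peak (118402951 to 118403850) overlapped nothing, and the 200 bp knockout peak (118405951 to 118406150) lay apart from it, under a RIP peak of 499 bp. In Snhg14 the 3 wild-type peaks all lay in the span of Snrpn, and 2 of them overlapped knockout peaks.

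**Figure D5:**
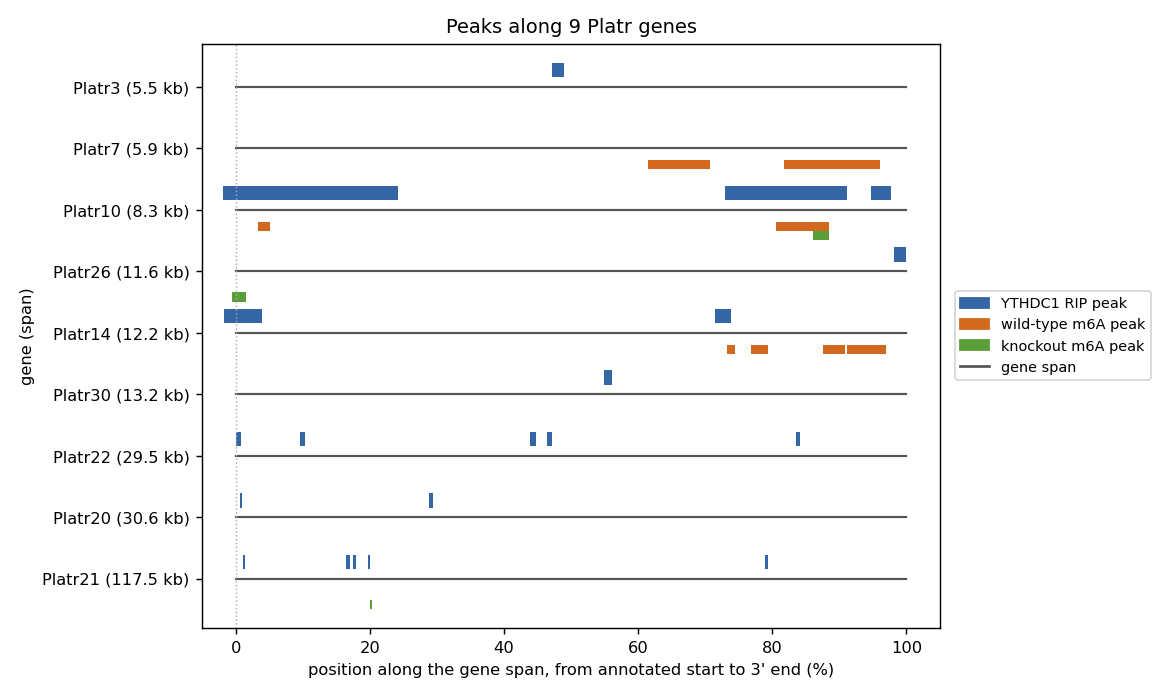
Peaks along the 9 Platr genes with a known strand and at least 1 peak, as percent of the span from the annotated start to the 3' end (x axis); narrow peaks are drawn at a minimum visible width. Wild-type m6A peaks (orange) of Platr7 and Platr14 lie toward the 3' end, RIP peaks (blue) cover the starts of Platr10, Platr14 and Platr22, and the knockout peak (green) of Platr26 lies at its start.

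Knockout m6A peaks lay in 4 genes of each group. These were 4 of 18 host genes (22.2%, exact 95% binomial interval 6.41 to 47.6%), Snhg4, Snhg14, Snhg15 and Snhg17, and 4 of 17 Platr genes (23.5%, 6.81 to 49.9%), Platr10, Platr11, Platr21 and Platr26, against 1.81% of all lncRNA genes. The odds ratio was 0.929 (0.192 to 4.50; exact p = 1, adjusted p = 1), an interval that leaves room for a difference of either sign. Over all members, 4 held m6A peaks of the wild-type list alone, 5 of the knockout list alone and 3 of both. Of all lncRNA genes 2.09%, 1.03% and 0.778% did so. Whether a peak seen in cells without METTL3 marks m6A was not tested. RIP peaks overlapped 6 of 15 wild-type and 3 of 12 knockout peaks of the members by at least 1 bp (40.0% and 25.0%), against 13.5% and 22.0% of all peaks in these lists. The shares of all peaks were not limited to genes with a RIP peak, whereas 11 of the 12 members with an m6A peak also held a RIP peak. In Platr4 an overlap was 9 bp, and 5 wild-type and 3 knockout peaks were overlapped over at least 50% of their width.

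In 3 of the 5 members with knockout m6A peaks alone, the peak lay across the annotated start of the RNA. Its midpoint was 59 bp into Snhg15, 71 bp into Snhg17 and 59 bp into Platr26 (chromosome 2, 71719417 to 71730966), and it reached 40, 28 and 66 bp beyond the start. None of these peaks overlapped the span of a protein-coding gene, the nearest lying 7641 bp (Myo1g), 28499 bp (Lbp) and 67286 bp (Itga6) away. The other 2 such members are Snhg4 (300 bp peak inside the span, strand not in the table used) and Platr21 (100 bp, also in the span of Trap1a). The share of all knockout peaks that lie across a start was not computed, so this place is not shown to be particular to these members. A knockout midpoint lay in the span of 1.81% of all lncRNA genes. Over the genes with RefSeq start windows (250 bases before to 50 after the start), a knockout peak touched the window of 3 of 16 host genes and 1 of 13 Platr genes, against 1.99% of lncRNA genes and 9.14% of all genes. Besides Snhg15 and Snhg17 the host gene counted is Snhg1, where the peak overlaps the span of its neighbour Slc3a2, reaches only the 14 bases of the window farthest from the start and lies outside Snhg1. Wild-type peaks touched no member's window, and they touched 0.944% of lncRNA windows by gene and 2.79% of those of all genes.

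The starts under these knockout peaks are shown from 100 bases before to 50 bases from the start, RefSeq sequence of GRCm38.p6 read 5′ to 3′ on the strand of the gene, with the bases under the knockout peak in capitals. Snhg15 is at chr11:6528711-6528860 on the minus strand, Snhg17 at chr2:158361473-158361622 on the minus strand and Platr26 at chr2:71719317-71719466 on the plus strand.
Snhg15: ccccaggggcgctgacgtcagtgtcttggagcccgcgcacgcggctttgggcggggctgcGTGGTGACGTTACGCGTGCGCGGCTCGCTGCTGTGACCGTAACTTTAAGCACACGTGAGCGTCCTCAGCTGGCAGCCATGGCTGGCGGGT
Snhg17: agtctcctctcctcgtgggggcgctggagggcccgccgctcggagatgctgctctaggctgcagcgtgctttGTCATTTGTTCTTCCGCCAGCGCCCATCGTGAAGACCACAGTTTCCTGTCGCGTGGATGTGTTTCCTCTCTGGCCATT
Platr26: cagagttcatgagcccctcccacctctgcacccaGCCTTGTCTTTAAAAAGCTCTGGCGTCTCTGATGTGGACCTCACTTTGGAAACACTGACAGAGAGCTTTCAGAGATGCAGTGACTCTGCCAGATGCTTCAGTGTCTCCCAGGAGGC

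The annotated starts differ in their first base: A in Snhg15, G in Snhg17 (with a further annotated start at T) and T in Platr26. In Snhg15 a RIP peak of 225 bp covered 45 of the first 50 transcribed bases as well, and overlapped the knockout peak by 155 bp.

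RIP peaks lay at the starts of a few Platr genes. A RIP peak touched the start window of 4 of 13 Platr genes (Platr10, Platr14, Platr21 and Platr22) and of 1 of 16 host genes (Snhg15), against 2.63% of lncRNA genes and 6.17% of all genes; the difference between host and Platr genes was not tested. The 571 bp peak at the start of Platr21 has its midpoint outside the span and is not among its 6 RIP peaks. In Platr22 the 247 bp RIP peak began at the annotated first base, as the same kind of stretch shows (chr1:136696111-136696260, plus strand, bases under the RIP peak in capitals).
Platr22: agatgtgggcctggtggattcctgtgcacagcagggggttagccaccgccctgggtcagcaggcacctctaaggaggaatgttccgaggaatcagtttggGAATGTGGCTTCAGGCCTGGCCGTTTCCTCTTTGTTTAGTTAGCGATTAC

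A run of pyrimidines at an annotated start was found in a minority of the host genes. The run was allowed to begin with C or T, and it began with T in Snhg12, Snhg17 and Snhg18. Whether these RNAs belong to the 5' terminal oligopyrimidine class was not tested. An unbroken run of at least 5 C or T from the first annotated base (on the gene's strand, at any annotated start) was found in 6 of 16 host genes and 2 of 13 Platr genes with a window, against 6.45% of lncRNA genes and 5.28% of all genes. The stretches below run from 20 bases before to 20 bases from the start, with the run in capitals (GRCm38.p6): Gas5 at its inner annotated start (chr1:161035146-161035185, plus), Snhg7 (chr2:26640225-26640264, minus), Snhg8 (chr3:123508317-123508356, minus), Snhg12 (chr4:132308658-132308697, plus), Snhg17 at its inner annotated start (chr2:158361490-158361529, minus), Snhg18 (chr15:32244643-32244682, minus) and Platr3 (chr2:135646503-135646542, plus).
Gas5: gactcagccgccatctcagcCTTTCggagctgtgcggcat
Snhg7: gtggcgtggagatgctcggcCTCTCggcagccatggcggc
Snhg8: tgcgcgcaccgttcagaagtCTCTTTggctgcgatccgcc
Snhg12: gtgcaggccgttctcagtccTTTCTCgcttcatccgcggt
Snhg17: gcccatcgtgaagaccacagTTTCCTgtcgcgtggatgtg
Snhg18: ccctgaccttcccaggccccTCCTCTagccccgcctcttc
Platr3: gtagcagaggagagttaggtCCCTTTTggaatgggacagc

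The run in Platr6, the other Platr gene, is made of T alone and goes on upstream of the start. In every stretch shown above except that of Snhg17 the base before the start is also C or T. The bases just before the start read cccc in Snhg18 and tcc in Snhg12. Of the 6 host genes with the run, 5 held RIP peaks (Gas5 3, Snhg7 6, Snhg8 1, Snhg12 4, Snhg17 2) and Snhg18 none, so the run was present both in hosts with a RIP peak and in the host without. Among these 6 only Snhg17 held an m6A peak, the knockout peak across its start.

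In a further group of Platr genes RIP peaks were the only or the most frequent peaks, except in Platr26, which held 1 RIP and 1 knockout peak. Platr21 (chromosome X, 139240226 to 139357738) held 6 RIP peaks, 3 of them also in the span of Trap1a, a tumour antigen gene, as was its knockout peak. Platr22 (chromosome 1, 136696211 to 136725728) held 5 of 182 to 247 bp, Platr20 and Platr27 held 2 each, the widest of 209 and 718 bp, and Platr3, Platr26 and Platr30 held 1 each, of 100, 207 and 148 bp. RIP peaks covered 59.5% of Platr27, a gene of 1742 bp. Platr5, Platr6, Platr8, Platr9 and Platr29 had no peak in any list.

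Genes around the snoRNA pathway were counted the same way. Of 20 genes for snoRNP proteins and their assembly factors, 18 held a RIP peak, 10 a wild-type m6A peak and 14 one of the knockout list. Of all 21883 protein-coding genes 42.2%, 30.3% and 18.2% did, with a median span of 17170 bp against 12150 bp for the 20. Among them Nop58, a core box C/D protein gene with 4 nested snoRNAs, held 7 RIP, 0 wild-type and 3 knockout peaks, and the assembly factor genes Shq1 and Nufip1 held 7, 1 and 0 and 5, 2 and 1. Dkc1, the pseudouridine synthase gene, named after its values were seen, held 2, 0 and 4. Nop10 held none. Of 372 protein-coding genes with a nested snoRNA, 74.7% held a RIP, 41.7% a wild-type and 27.2% a knockout peak, with a median span of 59762 bp. Of 92 other lncRNA genes with a nested snoRNA, 35.9% held a RIP, 4.35% a wild-type and 2.17% a knockout peak, with a median span of 28818 bp. Of the 13 further hosts and lncRNAs listed by name, 12 matched, of which 11 held RIP peaks, 7 wild-type m6A peaks and 3 knockout m6A peaks. They were listed as small RNA hosts and abundant lncRNAs of embryonic stem cells, and their median span was 25754 bp. Of all lncRNA genes from 20 kb up, 19.3% held a RIP, 4.37% a wild-type and 2.82% a knockout peak. Tug1 (9030 bp) held 4 RIP and 7 wild-type peaks, and Lncenc1 (62695 bp), a lncRNA of naive embryonic stem cells, 8 and 4. The compact snoRNA hosts Dancr (1278 bp) and Epb41l4aos (1098 bp) held 2 and 1 RIP peaks and no m6A peak, as did 12 of the 18 host genes; both were named after their values were seen. The RIP list is from total RNA and the m6A lists are from polyA RNA. A RIP peak without an m6A peak therefore does not show YTHDC1 binding without m6A.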

How the data were processed

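The authors deposited 3 peak lists as chromosome, start and end in bp. The submitters' processing notes list mm10 as build and name STAR 2.7, Trim Galore 0.6.4, MACS2 2.1.2, HISAT2 2.2.0 and SAMtools 1.9. The peak threshold, the control behind each list and any pooling of replicates are not given there. All m6A peaks lie on a 50 bp grid and 0.513% of RIP peaks do. A peak was counted in every gene whose span (RefSeq, GRCm38.p6) held its midpoint. Strand came from the RefSeq start windows, which cover 29 of 35 members. Host and Platr genes were compared with Fisher's exact test (SciPy 1.17.1, Python 3.11.15), two-sided, Wald 95% intervals with 0.5 added where a cell was 0, and Benjamini-Hochberg adjustment over 3 lists; genes are not replicates. Counting was tested on simulated peaks. The members and lists were chosen with earlier results of these data known. All members are named, with coordinates for those with an m6A peak and for those with the most RIP peaks (at least 4); in the further lists, genes with the most peaks are named. The grouping of snoRNAs by symbol was made after seeing the data.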

Additional observations from a re-analysis of the deposited data

How the results depend on the processing

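For the RIP list the odds ratio of host over Platr genes stayed above 1 in all 10 alternatives (4.57 to 15.1, Fisher's exact test, adjusted p = 0.0217 to 0.621) and passed in 1, peaks wider than the list median (15.1). For the wild-type list it stayed below 1 in all 10 (0.0811 to 0.320, exact adjusted p = 0.0682 to 0.598). For the knockout list, where the odds ratio was 0.929, it turned above 1 in 4: 1.33 with each peak given to 1 gene, 5.30 with peaks wider than the list median, 1.18 among members outside protein-coding spans and 1.11 among members of 2 to 50 kb (exact adjusted p = 0.486 to 1 over the 10). With peaks wider than the median fewer peaks are counted, and 4 members held a wild-type peak, 2 a knockout peak and 2 a knockout peak only; the other alternatives kept these counts within 1.5 times. Leaving out Snhg14 and matching names more loosely, which adds Snhg7os and Platr25, were chosen after seeing the data. No paired analysis was possible because each list is 1 set of positions with no value per replicate, and leaving out replicates could not be run for the same reason. Without scores, width stood in for a stricter peak threshold.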
